A study of Glycine max with 32 samples.

Results

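The comparison described here is the response of field-grown VPZ-34A soybean to elevated CO2 (e[CO2]) at the late reproductive stage R5–R6. Its members are 8 of the 32 leaf RNA libraries of the study, chosen by their labels alone: the 4 libraries of VPZ-34A from ambient CO2 (a[CO2], 410 µmol mol-1, rings 1, 2, 4 and 7) and the 4 from e[CO2] (600 µmol mol-1, rings 3, 5, 6 and 8). VPZ-34A is 1 transformation event of the cultivar Maverick that overexpresses the Arabidopsis genes *AtVDE*, *AtPsbS* and *AtZEP*, and both CO2 groups carry these 3 transgenes. A ring is a circular field plot in the open air that is either fumigated with CO2 or not. It held both lines, and each library pools leaf disks of several plants of 1 plot, so that n is the number of rings. The 4 WT libraries of each CO2 level at the same stage, and the 4 VPZ-34A libraries of each CO2 level at the vegetative stage V4–V5, came from the same 8 rings. They are used to show where this response differs, and the WT libraries also enter the fit that gives the p-values.

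In strong light, violaxanthin de-epoxidase (VDE) turns violaxanthin into zeaxanthin, zeaxanthin epoxidase (ZEP) turns it back, and the photosystem II subunit PsbS senses the proton gradient and switches on the release of excess light energy as heat. Overexpression of all 3 is meant to speed the relaxation of this protection after a leaf moves from sun into shade. In a C3 leaf, elevated CO2 favours carboxylation by Rubisco over oxygenation, lowers photorespiration and commonly raises the sugar content. At R5–R6 soybean leaves supply filling seeds with carbon and nitrogen, shortly before they senesce.

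Total estimated counts were 17639354 to 63132399 in the 4 a[CO2] libraries and 18956175 to 24556102 in the 4 e[CO2] libraries, and 3 counts corresponded to 0.0475 to 0.17 CPM, the unit of level used here, in which counts are scaled to 1 library total. The a[CO2] library of ring 7 stood apart from its group. On the first principal component of the 16 R5–R6 libraries, which held 28.7% of the variance, rings 1, 2 and 4 scored -76.65, -66.68 and -57.98, and ring 7 scored 57.67. The e[CO2] libraries scored -46.6 in ring 3, -18.33 in ring 5, 43.46 in ring 6 and 20 in ring 8, so that ring 7 lay beyond all 4 of them. The same ring scored 57.4 in WT, where the other a[CO2] rings were lower too. Ring 7 gave the highest CPM of the 8 libraries in 25.4% of the 33200 genes tested and the lowest in 24.5%, and its weight in a limma-voom fit with sample quality weights was 0.201, against 0.79 to 2.84 in the other 7 VPZ-34A libraries. Many of the counts and values that rest on ring 7 are therefore given with and without it, and the others with all rings only. The fit without it leaves out ring 7 of both lines.

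**Figure D1:**
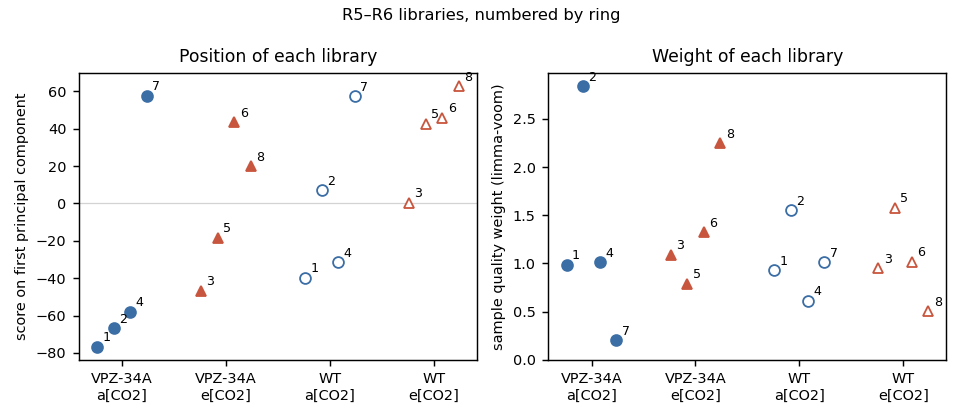
Score of each R5–R6 library on the first principal component (left) and its sample quality weight in limma-voom (right), with points numbered by ring, filled for VPZ-34A and open for WT, and circles for a[CO2] and triangles for e[CO2]. Ring 7 of VPZ-34A at a[CO2] scored 57.67 against -76.65 to -57.98 for the other 3 a[CO2] rings, and its weight was 0.201.

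No gene passed an adjusted p of 0.05 for e[CO2] against a[CO2] in VPZ-34A (edgeR quasi-likelihood test, 0 of 33200 genes, 0%, lowest adjusted p = 0.106). At an unadjusted p under 0.05 there were 3720 genes, 11.2% of those tested, of which 1665 were higher at e[CO2] (5.02%) and 2055 lower (6.19%). Among these, 415 higher and 345 lower genes differed by at least 1 on the log2 scale. The median log2FC over all genes was -0.02. The CPM of the 4 e[CO2] libraries lay entirely above those of the 4 a[CO2] libraries in 942 genes (2.84%) and entirely below in 1112 genes (3.35%). The paper, with limma after ComBat-seq by block and over both lines, did call genes for CO2 at this stage. Of its listed genes 281 were tested here, and 197 had an unadjusted p under 0.05 (edgeR). That list was made on these libraries, so this count is not independent evidence.

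The call depended on the tool. DESeq2 called 146 genes (0.44%), 73 higher and 73 lower, and limma-voom with quality weights called 645 genes (1.94%), 335 higher and 310 lower. They shared 124 genes, which is 84.9% of the DESeq2 list and 19.2% of the weighted list, whereas limma-voom without weights called 0. Of the 146 genes, 138 did not overlap between the groups, and every one had an unadjusted edgeR p of 0.00555 or less. Without ring 7 edgeR again called 0 genes (lowest adjusted p = 0.136), with 4512 of 33434 genes at an unadjusted p under 0.05 (13.5%), 2423 higher (7.25%) and 2089 lower (6.25%). DESeq2 without ring 7 called 573 genes (1.71%), 385 higher and 188 lower, 108 of them among the 146. With 3 a[CO2] rings against 4 e[CO2] rings, 2188 genes did not overlap on the higher side (6.59%) and 2698 on the lower side (8.13%). Groups of 3 and 4 separate without overlap more often than groups of 4 and 4 by their size alone. These shares are thus not comparable with those of all 8 libraries, and the rise is not a result about ring 7. Of the 1665 higher genes 1157 (69.5%) kept both their direction and an unadjusted p under 0.05 without ring 7, and of the 2055 lower genes 1144 (55.7%) did. The p-values come from fits of the R5–R6 libraries of both lines, and measure the spread between plots within the groups of both. The 2 lines share the 8 rings, but these fits treat their libraries as independent. With the 8 VPZ-34A libraries alone edgeR called 0 genes, with 3165 at an unadjusted p under 0.05. In leaf RNA, fewer cells of a type and less RNA per cell cannot be told apart.

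The 6 genes with the lowest p among those higher at e[CO2] without overlap were low to moderate in level, and 4 of them carried an annotation that could be used. Glyma.06G005900, annotated as a calcium-binding EF-hand protein, stood at 0.396, 0.176, 0.186 and 0.285 CPM in a[CO2] rings 1, 2, 4 and 7 and at 1.16, 1.1, 1.03 and 0.9 CPM in e[CO2] rings 3, 5, 6 and 8. Every e[CO2] ring was above every a[CO2] ring, and the log2FC was 2.01 ± 0.29 (SE, unadjusted p = 3.21e-06 in edgeR, adjusted p = 0.106, DESeq2 adjusted p = 0.000597). EF-hand proteins bind calcium and relay calcium signals. Glyma.07G229000, expansin A15, stood at 0.94, 1.23, 1.01 and 0.882 CPM at a[CO2] and at 2.16, 2.7, 3.56 and 3.09 CPM at e[CO2] (log2FC 1.51 ± 0.28, edgeR adjusted p = 0.306). Expansins loosen cell walls, and here ring 7 was the lowest of the a[CO2] libraries, close to ring 1. Glyma.03G246700, annotated as the NAD(P)-linked oxidoreductase ATB2, was even among the a[CO2] rings at 7.42, 6.81, 7.12 and 6.54 CPM, and stood at 11.5, 9.9, 16.2 and 16.7 CPM at e[CO2] (log2FC 0.96 ± 0.18, edgeR adjusted p = 0.306). Glyma.19G226500, a pectin lyase-like protein of the family that includes polygalacturonases, stood at 1.43, 0.47, 0.775 and 0.908 CPM at a[CO2] and at 3.64, 2.55, 2.7 and 1.96 CPM at e[CO2] (log2FC 1.59 ± 0.30, edgeR adjusted p = 0.306). The other 2, Glyma.07G030300 and Glyma.03G073200, had log2FC of 1.07 ± 0.19 and 1.62 ± 0.30. Without ring 7 the 6 values of log2FC were 0.94 to 2.09.

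The 6 genes of lowest p on the lower side were more abundant. Glyma.02G022300, annotated as homeobox 1 (a leucine zipper transcription factor of the HD-Zip family), stood at 146, 129, 101 and 115 CPM at a[CO2] and at 55.7, 52.1, 47.2 and 40.4 CPM at e[CO2]. The lowest a[CO2] ring was well above the highest e[CO2] ring, and the log2FC was -1.33 ± 0.24 (edgeR adjusted p = 0.306, DESeq2 adjusted p = 0.00117). Glyma.08G247300, annotated as TCP13 or plastid transcription factor 1, belongs to the TCP factors, which set leaf growth and shape in Arabidopsis. It stood at 49.2, 38.5, 57.8 and 39.3 CPM at a[CO2] and at 30.6, 23.9, 19.1 and 19 CPM at e[CO2] (log2FC -0.9997 ± 0.19, edgeR adjusted p = 0.327). Glyma.04G170100, to which no annotation could be given, varied least among rings, with 18.1, 20, 17.6 and 17.2 CPM at a[CO2] and 11.2, 10.1, 10.3 and 11.1 CPM at e[CO2] (log2FC -0.77 ± 0.14, edgeR adjusted p = 0.306). The other 3, also without annotation, were Glyma.02G234800 (log2FC -0.85 ± 0.16), Glyma.20G166800 (-1.08 ± 0.21) and Glyma.13G365500 (-1.16 ± 0.23). Without ring 7 the 6 values were -1.35 to -0.79. All 12 genes passed an adjusted p of 0.05 in DESeq2 and in the weighted fit, and none in edgeR.

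**Figure D2:**
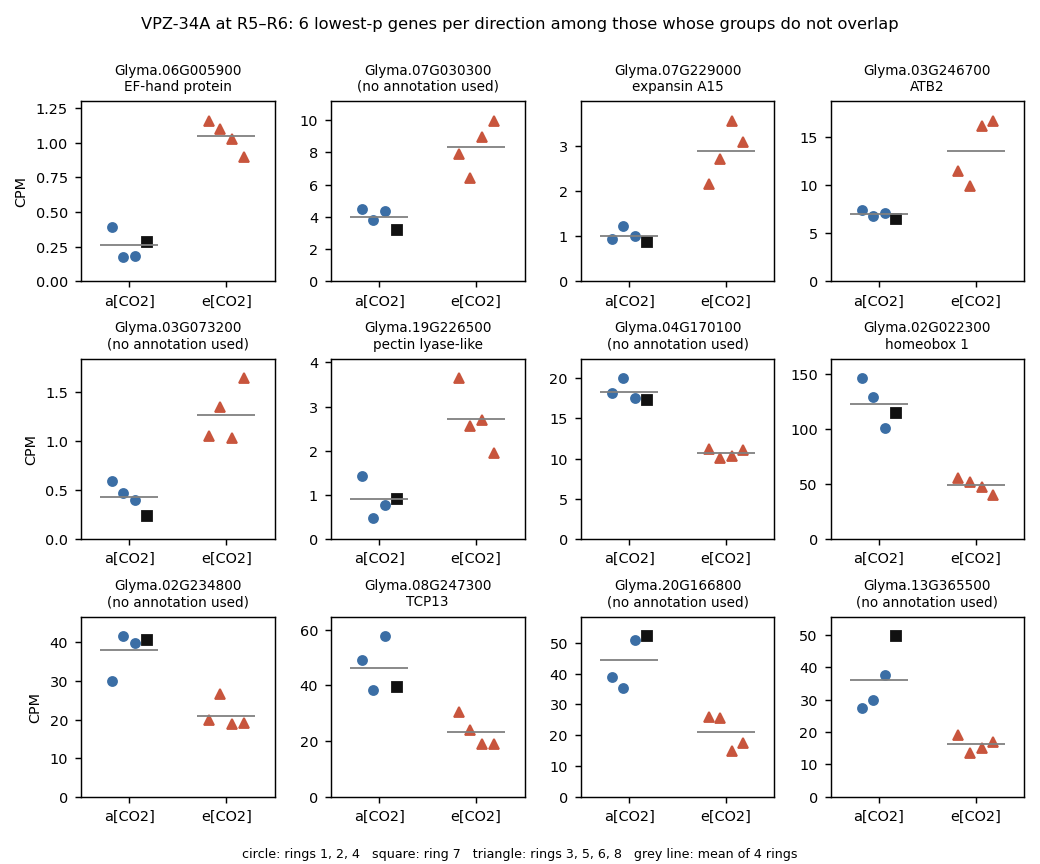
CPM of the 12 genes of lowest p per direction among those whose groups do not overlap, in each VPZ-34A library at R5–R6: circles, a[CO2] rings 1, 2 and 4; square, ring 7; triangles, e[CO2] rings; grey line, mean of 4 rings. The groups do not overlap because the genes were chosen for it, and homeobox 1 stood at 101 to 146 CPM at a[CO2] and at 40.4 to 55.7 CPM at e[CO2].

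To describe pathways, genes were grouped by words in the annotation that the supplement of the study gives for 835 of its listed genes, 640 of which were tested here and carried a symbol or description. Most of these genes entered the supplement because they differed with CO2, or in their CO2 response between lines, in these same libraries. The groups and the genes named from them were chosen after the values were seen. Of the 640, 183 were higher and 145 lower at an unadjusted p under 0.05 (51.25%, against 11.2% of all genes). Their counts therefore describe the groups and are not independent evidence of a direction. The share was 45.5% for hormone, 45.7% for defence and 51.7% for transport genes, at or below that of the 640 or close to it. It was 68.4% for cell wall, 69.7% for transcription factor, 70% for redox, 70.6% for carbon and 78.8% for nuclear genes. No member of any group passed the edgeR test after adjustment. The symbols come from the most similar Arabidopsis gene, and the roles below are those known in Arabidopsis. Reads shared between near-identical copies were split by the authors, which makes the level of each single copy uncertain.

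Of 17 genes of carbon metabolism, 6 were higher and 6 lower at an unadjusted p under 0.05 (median log2FC 0.16, 0.59 without ring 7), and 13 of the 17 came from lists made on these libraries. Isocitrate lyase, an enzyme of the glyoxylate cycle that lets plants build sugars from the carbon of lipids, stood lower at e[CO2] in both of its genes. Its gene Glyma.12G100500 stood at 4.15, 1.17, 8.62 and 4.96 CPM in a[CO2] rings 1, 2, 4 and 7 and at 0.211, 0.65, 0.172 and 0.548 CPM in e[CO2] rings 3, 5, 6 and 8. The a[CO2] rings differed several-fold among themselves, yet the lowest of them was above every e[CO2] ring, with a log2FC of -3.58 ± 0.74 (DESeq2 adjusted p = 0.00118). The second isocitrate lyase gene, Glyma.06G303200, stood at 0.989, 0.998, 6.82 and 2.93 CPM at a[CO2] and at 0.581, 0.6, 0.472 and 0.626 CPM at e[CO2] (log2FC -2.39 ± 0.61). Trehalose phosphate synthase 11 (Glyma.17G067800, a family tied to the signalling of sugar status) stood at 17.6, 13, 13.6 and 5.4 CPM at a[CO2] and at 8.66, 4.35, 3.95 and 2.97 CPM at e[CO2]. Ring 7 overlapped the e[CO2] rings here, and the log2FC was -1.32 ± 0.42 with it and -1.56 without it. Galactinol synthase 2 (Glyma.19G227800), which starts the synthesis of raffinose sugars, had a log2FC of -1.71 ± 0.55, and -2.04 without ring 7.

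Other genes of this group stood higher at e[CO2] or showed little difference. Alpha-amylase 1 (Glyma.17G242400), which cuts starch, stood at 0.692, 0.528, 1.74 and 4.64 CPM at a[CO2] and at 2.06, 9.9, 19.8 and 9.43 CPM at e[CO2]. The groups overlapped only through ring 7 and ring 3, with a log2FC of 2.37 ± 0.75 and of 3.25 without ring 7. Serine hydroxymethyltransferase 4 (Glyma.05G152100), which links serine and glycine, stood at 12.4, 9.74, 9.77 and 10 CPM at a[CO2] and at 16.9, 21.9, 30.4 and 28.3 CPM at e[CO2] (log2FC 1.22 ± 0.26, DESeq2 adjusted p = 0.0103). Enolase 2 (Glyma.19G190900), a late step of glycolysis, stood at 108, 123, 98.5 and 75.3 CPM at a[CO2] and at 163, 150, 193 and 150 CPM at e[CO2] (log2FC 0.70 ± 0.16). Both genes were without overlap between the groups. Another enolase gene, Glyma.16G204600, the cytosolic glyceraldehyde-3-phosphate dehydrogenase *GAPC1* (Glyma.18G009700) and the phosphoenolpyruvate carboxylase *PPC4* (Glyma.01G091000) had log2FC of 0.16, 0.02 and -0.35 with overlapping groups (unadjusted p = 0.749, 0.978 and 0.495, edgeR). *PYD4* (Glyma.03G040600), of pyrimidine breakdown, was at 0 in a[CO2] rings 1 and 2, at 0.186 and 1.01 CPM in rings 4 and 7, and at 0.158, 0.9, 3.43 and 3.52 CPM at e[CO2]. Its log2FC was 2.56 ± 1.08, and 4.28 without ring 7.

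Redox and detoxification genes were mostly higher at e[CO2]. Of 20 tested, 11 were higher and 3 lower at an unadjusted p under 0.05 (median log2FC 0.68, 0.59 without ring 7), and 17 came from lists made on these libraries. Of 3 tau-class glutathione S-transferase genes with neighbouring locus numbers, which conjugate glutathione to toxic compounds, *GSTU8* (Glyma.07G139800) stood at 6.18, 3.52, 4.09 and 11 CPM at a[CO2] and at 37.4, 15.9, 30.4 and 27.4 CPM at e[CO2]. Ring 7 was the highest a[CO2] ring in all 3. The log2FC of Glyma.07G139800 was 2.15 ± 0.59 (DESeq2 adjusted p = 0.0368), that of a second *GSTU8* (Glyma.07G139700) 1.86 ± 0.66 and that of *GSTU7* (Glyma.07G139900) 1.49, and the 3 values were 2.52 to 2.60 without ring 7. Alkenal reductase (Glyma.03G098600), which removes reactive carbonyls formed from oxidised lipids, stood at 9.84, 9.57, 13.6 and 18.1 CPM at a[CO2] and at 33.7, 25.4, 53.2 and 42.7 CPM at e[CO2], with no overlap (log2FC 1.59 ± 0.40, DESeq2 adjusted p = 0.029). Metallothionein 2A (Glyma.14G093100), a metal-binding protein, was by far the most abundant gene named here from this group, at 776, 995, 813 and 837 CPM at a[CO2] and at 1061, 1438, 1744 and 1349.5 CPM at e[CO2] (log2FC 0.71 ± 0.18, DESeq2 adjusted p = 0.022). On the lower side, *OXS3* (Glyma.07G125600, oxidative stress 3) stood at 11.7, 3.82, 5.38 and 0.285 CPM at a[CO2] and at 3.48, 0.65, 0.129 and 0.117 CPM at e[CO2]. Ring 7 lay among the e[CO2] rings, and the log2FC was -2.30 ± 1.05.

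Of 22 hormone genes, 8 were higher and 2 lower at an unadjusted p under 0.05 (median log2FC 0.74, 1.22 without ring 7), and 16 came from lists made on these libraries. Allene oxide cyclase 4 (Glyma.18G280900), of jasmonate synthesis, stood at 1.14, 1.06, 0.636 and 2.21 CPM at a[CO2] and at 2.22, 9.3, 3.69 and 3.13 CPM at e[CO2] (log2FC 1.86 ± 0.50, DESeq2 adjusted p = 0.0479). Ring 7 at a[CO2] was level with ring 3 at e[CO2], and ring 5 was the highest. *MYC2* (Glyma.07G051500), the transcription factor of the jasmonate response, stood at 5.7 CPM in ring 5 and at 0 to 0.494 CPM in the other 7 libraries, so that its log2FC of 3.27 rested on 1 ring. *IAR3* (Glyma.15G022300), which frees auxin from conjugates, had a log2FC of 1.52 ± 0.46. Methionine gamma-lyase (Glyma.13G001200), which breaks down methionine, had one of 1.77 ± 0.54. Lower were the ethylene-forming enzyme *ACO4* (Glyma.09G008400), with 18.9, 16.1, 16.5 and 8.15 CPM at a[CO2] and 8.29, 7.25, 5.58 and 3.25 CPM at e[CO2], and the auxin-response repressor *IAA29* (Glyma.04G066300), with log2FC of -1.29 ± 0.37 and -2.49 ± 0.81. In *ACO4* ring 7 at a[CO2] was below ring 3 at e[CO2].

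Of 35 defence and receptor genes, 15 were higher and 1 lower at an unadjusted p under 0.05, with a median log2FC of 0.94 and of 0.96 without ring 7. Of the 35, 22 came from lists made on these libraries. *PEPR1* (Glyma.15G001500), a receptor of peptides released on wounding, stood at 0, 0.352, 0.171 and 0.441 CPM at a[CO2] and at 1.06, 0.75, 1.59 and 1.02 CPM at e[CO2] (log2FC 2.15 ± 0.59). The cysteine-rich receptor kinase *CRK29* (Glyma.01G013500) stood at 6.63, 10.9, 7.63 and 9.18 CPM at a[CO2] and at 17.2, 14.2, 15.5 and 20 CPM at e[CO2] (log2FC 0.97 ± 0.22, DESeq2 adjusted p = 0.0278). Neither gene overlapped between the groups. The Kunitz trypsin inhibitor gene Glyma.08G341800, whose product blocks the digestive proteases of insects, stood at 11.6, 5.64, 6.98 and 4.85 CPM at a[CO2] and at 10.6, 55.7, 16 and 2.7 CPM at e[CO2]. Its high value was that of ring 5 alone, as for *MYC2*, and e[CO2] ring 8 was below every a[CO2] ring. *SAG101* (Glyma.13G069600), a senescence-associated gene with a role in immunity, had a log2FC of 1.38 ± 0.45.

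Cell wall genes gave the largest median log2FC of the 8 annotation groups, 0.97 (1.46 without ring 7), with 10 of 19 higher and 3 lower at an unadjusted p under 0.05, and 17 of the 19 from lists made on these libraries. Beside expansin A15 and the pectin lyase-like gene, UDP-glucose 6-dehydrogenase (Glyma.13G057700), which makes the precursor of wall uronic acids and xylose, stood at 8.41, 6.22, 5.2 and 11.2 CPM at a[CO2] and at 12, 17, 19.1 and 34.4 CPM at e[CO2] (log2FC 1.41 ± 0.33, DESeq2 adjusted p = 0.0265). Arabinogalactan protein 1 (Glyma.08G070300) had a log2FC of 1.72 ± 0.43. Both were without overlap. An inhibitor of pectin methylesterase or invertase (Glyma.05G236600) stood on the other side, with a log2FC of -2.10 ± 0.58. Of 29 transport genes, 9 were higher and 6 lower at an unadjusted p under 0.05 (median log2FC 0.69), and 24 came from lists made on these libraries. The tonoplast water channel *TIP1;3* (Glyma.11G143100) stood at 2.52, 1.82, 1.15 and 1.04 CPM at a[CO2] and at 6.6, 2.95, 17.1 and 25 CPM at e[CO2] (log2FC 3.03 ± 0.65, DESeq2 adjusted p = 0.0013). The e[CO2] rings of *TIP1;3* were all above the a[CO2] rings but differed several-fold among themselves. The transporter *GAT1* (Glyma.12G084500), which carries 4-aminobutyrate, had a log2FC of 1.60 ± 0.39, and the nitrate transporter *NRT1:2* (Glyma.17G096800) of 2.17 ± 0.77, and 2.95 without ring 7.

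**Figure D3:**
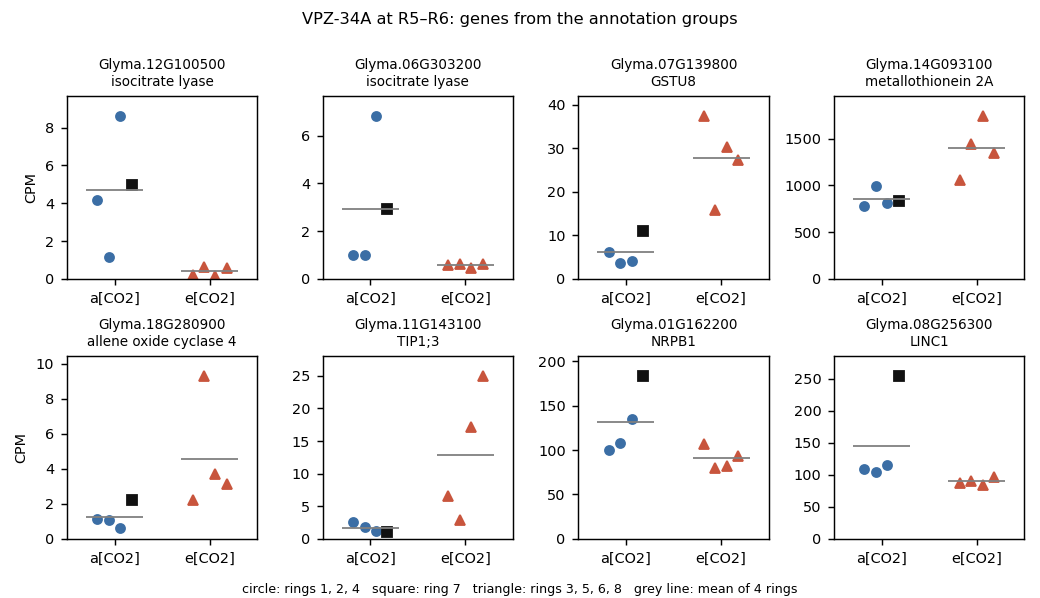
CPM of 8 genes from the annotation groups in each VPZ-34A library at R5–R6: circles, a[CO2] rings 1, 2 and 4; square, ring 7; triangles, e[CO2] rings; grey line, mean of 4 rings. For *LINC1* ring 7 had 254 CPM, the other a[CO2] rings 104 to 115 CPM and the e[CO2] rings 84.3 to 96.6 CPM.

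Genes of nuclear RNA and chromatin functions stood the other way, and here ring 7 carried much of the difference. Of 33 tested, 24 were lower and 2 higher at an unadjusted p under 0.05 (median log2FC -0.46), 31 of them from lists made on these libraries. Ring 7 was the highest of the 8 libraries in 25 of the 33 (75.8%), against 25.4% of all genes. Without ring 7, 20 of the 33 were lower and 0 higher and the median was -0.29. The large subunit of RNA polymerase II, *NRPB1* (Glyma.01G162200), stood at 99.9, 108, 135 and 184 CPM at a[CO2] and at 107, 79.8, 82.6 and 93.6 CPM at e[CO2]. Its log2FC was -0.54 ± 0.18, and -0.32 without ring 7 (unadjusted p = 0.0536, edgeR). *LINC1* (Glyma.08G256300), which shapes the nucleus, stood at 109, 104, 115 and 254 CPM at a[CO2] and at 86.8, 90.2, 84.3 and 96.6 CPM at e[CO2], with a log2FC of -0.70 ± 0.23, and -0.28 without ring 7. Rings 1, 2 and 4 alone were thus above the e[CO2] rings by a small margin. The cyclophilin *CYP59* (Glyma.19G004200), which binds RNA in the nucleus, had a log2FC of -1.11 ± 0.36, and -0.32 without ring 7. *XRN3* (Glyma.17G257100), a nuclear 5′ to 3′ exoribonuclease, depended less on it, at 59.5, 61.4, 67 and 76.8 CPM at a[CO2] and 50.9, 53.6, 46.9 and 43.1 CPM at e[CO2] (log2FC -0.45 ± 0.13, and -0.36 without ring 7).

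Of 33 transcription factor genes, 16 were lower and 7 higher at an unadjusted p under 0.05 (median log2FC -0.47, -0.37 without ring 7), and 23 came from lists made on these libraries. Beside homeobox 1 and *TCP13*, the trihelix factor *GT2* (Glyma.20G166600) stood at 29.6, 24.4, 36.1 and 49.8 CPM at a[CO2] and at 21.4, 19.8, 13.7 and 14.6 CPM at e[CO2] (log2FC -1.01 ± 0.22, DESeq2 adjusted p = 0.017). *PIF4* (Glyma.02G282100), which acts downstream of phytochrome in light and temperature growth responses, and *RVE1* (Glyma.11G211643), a clock-linked MYB-like factor, showed ring 7 on the e[CO2] side. *RVE1* stood at 94, 93.5, 95 and 32.7 CPM at a[CO2] and at 45.1, 28.6, 36 and 21 CPM at e[CO2], with a log2FC of -1.27 ± 0.35, and -1.52 without ring 7. *PIF4* stood at 24.8, 23.7, 33.6 and 5.47 CPM at a[CO2] and at 15.8, 10.3, 2.88 and 5.71 CPM at e[CO2], with a log2FC of -1.34 ± 0.59, and -1.66 without ring 7. 2 genes annotated as *ICE1*, a regulator of cold responses and stomatal development, stood in opposite directions. Glyma.06G165000 was at 7.52, 6.81, 8.62 and 12.2 CPM at a[CO2] and at 5.59, 4.9, 2.79 and 4.03 CPM at e[CO2], with a log2FC of -1.03 ± 0.25. Glyma.16G147200 was at 0 to 0.198 CPM at a[CO2] and at 0.3 to 0.558 CPM at e[CO2], with a log2FC of 2.57 ± 0.63.

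Outside these groups, phenylalanine ammonia lyase 1 (Glyma.03G181700), the entry into phenylpropanoid synthesis, stood at 13.3, 8.22, 6.59 and 9.73 CPM at a[CO2] and at 14.9, 16.4, 18.5 and 30.8 CPM at e[CO2] (log2FC 1.10 ± 0.24, DESeq2 adjusted p = 0.0181). A gene of the chalcone-flavanone isomerase family (Glyma.14G098100) had a log2FC of 2.002 ± 0.57. Glyma.15G126100, annotated as the photosystem I subunit PSAJ, stood at 52.7, 39.1, 28.9 and 47.7 CPM at a[CO2] and at 51.8, 125, 74.8 and 102 CPM at e[CO2] (log2FC 1.07 ± 0.28, DESeq2 adjusted p = 0.049). Its e[CO2] ring 3 lay within the a[CO2] range. The paper's enrichment analysis, over both lines, reported the photosynthesis pathway as lower under e[CO2] at this stage, and this single gene does not describe that pathway.

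Among 89 genes that the study listed for CO2 at V4–V5, in other libraries of the same rings, 9 were higher and 3 lower here at an unadjusted p under 0.05 (13.5%, against 11.2% of all genes), with a median log2FC of 0.32. Of the 89, 7 were also in the lists for CO2 or the interaction made on the R5–R6 libraries. Without ring 7, 29 of the 89 were higher and 2 lower, against 7.25% and 6.25% of all genes, with a median of 0.61. The serine carboxypeptidase-like gene *SCPL45* (Glyma.03G125400) stood at 3.86, 3.58, 3.66 and 4.02 CPM at a[CO2] and at 4.54, 6.6, 8.76 and 10.5 CPM at e[CO2] (log2FC 1.01 ± 0.26, DESeq2 adjusted p = 0.0469). It was the only one of the 89 that DESeq2 called. Alcohol dehydrogenase 1 (Glyma.06G122600) stood at 5.54, 10.2, 7.1 and 26.6 CPM at a[CO2] and at 14.9, 17.1, 30.5 and 31.8 CPM at e[CO2], where ring 7 alone reached into the e[CO2] range. Its log2FC was 0.93 ± 0.43, and 1.65 without ring 7. The nuclear factor Y subunit *NF-YA10* had log2FC of 0.56 (Glyma.02G195000) and 0.67 (Glyma.10G082800).

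Of the 3 transgenes and 7 native genes of VDE, PsbS and ZEP, 1 of 10 had an unadjusted p under 0.05, close to the 11.2% of all genes, and none passed adjustment (edgeR). In the 8 WT libraries *AtPsbS* was at 0 to 0.928 CPM, *AtZEP* at 0.0518 to 0.281 CPM and *AtVDE* at 0 to 0.058 CPM. *AtPsbS* stood at 2131, 1699, 1461 and 832 CPM in a[CO2] rings 1, 2, 4 and 7 and at 2905, 2517, 2252 and 2254 CPM in e[CO2] rings 3, 5, 6 and 8. The groups did not overlap and ring 7 was the lowest, but the log2FC of 0.70 ± 0.52 did not pass the test (edgeR adjusted p = 0.626), and it was 0.50 without ring 7. With the 8 VPZ-34A libraries alone the log2FC was 0.72 (unadjusted p = 0.0263, edgeR adjusted p = 0.462). *AtVDE* stood at 122, 93.9, 57.1 and 142 CPM at a[CO2] and at 123, 99.4, 112 and 80.3 CPM at e[CO2], and *AtZEP* at 1309, 1287, 1139 and 1056 CPM and at 1152, 1063, 1291 and 1006 CPM. Both overlapped between the groups, with a log2FC of -0.09 ± 0.19 for *AtZEP* and an unadjusted p of 1 for *AtVDE* (edgeR). The native gene with an unadjusted p under 0.05 was Glyma.17G174500, at 1149, 1407, 1506 and 1090 CPM at a[CO2] and 1079, 1036, 740 and 917 CPM at e[CO2]. Its groups did not overlap but came close between ring 7 and ring 3 (log2FC -0.45 ± 0.20, edgeR adjusted p = 0.421). The native ZEP gene Glyma.11G055700 stood at 16.3, 32.9, 33.7 and 35.4 CPM at a[CO2] and at 13.1, 18.1, 26.6 and 24.5 CPM at e[CO2] (log2FC -0.53 ± 0.30), and the native ZEP gene Glyma.09G000600 at 22.6 to 29.5 CPM and 15.7 to 33 CPM. The 4 remaining native genes had log2FC of -0.34 to -0.04.

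**Figure D4:**
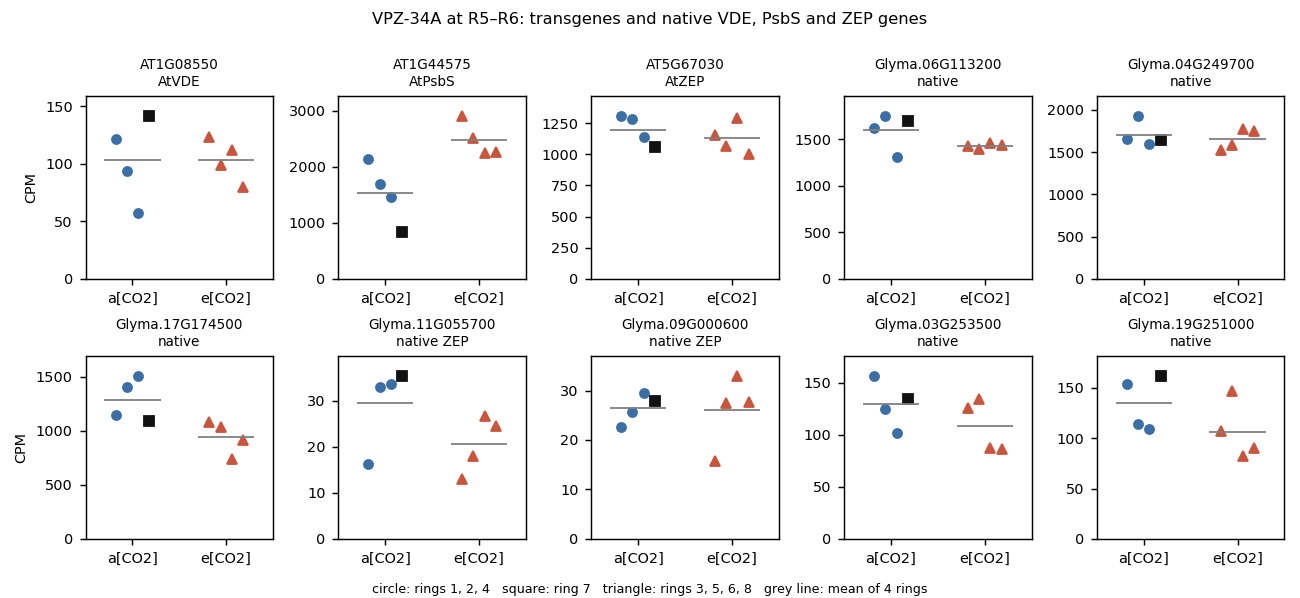
CPM of the 3 transgenes and 7 native VDE, PsbS and ZEP genes in each VPZ-34A library at R5–R6: circles, a[CO2] rings 1, 2 and 4; square, ring 7; triangles, e[CO2] rings; grey line, mean of 4 rings. *AtPsbS* stood at 832 to 2131 CPM at a[CO2] and at 2252 to 2905 CPM at e[CO2], and *AtVDE* and *AtZEP* overlapped between the groups.

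Compared with WT in the same rings, the same contrast gave fewer genes at an unadjusted p under 0.05 in WT, 1568 (4.72%) against 3720, and 0 after adjustment in edgeR (lowest adjusted p = 0.998). Non-overlapping genes numbered 327 higher (0.985%) and 362 lower (1.09%) in WT. The median absolute log2FC was 0.21 in VPZ-34A and 0.161 in WT. Of the 3720 genes, 3011 (80.9%) had the same sign in WT, against 62.9% of all genes. The lines share their rings, so that a difference between plots enters both. For the 1665 higher genes the median log2FC was 0.70 in VPZ-34A and 0.26 in WT, and for the 2055 lower genes -0.54 and -0.16. These genes were chosen by their values in VPZ-34A, which favours larger values in that line.

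Several genes above stood close to each other in both lines. Alkenal reductase had a log2FC of 1.59 in VPZ-34A and 1.73 in WT, serine hydroxymethyltransferase 4 (Glyma.05G152100) 1.22 and 1.02, *ACO4* -1.29 and -1.17, galactinol synthase 2 (Glyma.19G227800) -1.71 and -1.81, and *SAG101* 1.38 and 1.46. Isocitrate lyase (Glyma.12G100500) had -3.58 and -1.54. The nuclear genes stood at 0.09 in WT for *NRPB1* (Glyma.01G162200) and *LINC1* and at 0.06 for *XRN3*, and the median of the 33 nuclear genes was -0.46 in VPZ-34A and 0.04 in WT. Without ring 7 the median of these genes in VPZ-34A was -0.29, so that part of this gap rested on that ring. All WT values here include ring 7. The redox genes had medians of 0.68 and -0.17, and the transcription factors of -0.47 and -0.21. For the other groups the WT median had the same sign as in VPZ-34A and was 1.17 for cell wall, 0.86 for hormone, 0.76 for transport, 0.69 for defence and 0.26 for carbon genes, against 0.97, 0.74, 0.69, 0.94 and 0.16. Most of these genes were listed by the study on these libraries of both lines, for CO2 or for the interaction of line and CO2. Of the 33 nuclear genes 24, and of the 20 redox genes 4, had an unadjusted interaction p under 0.05 (edgeR), against 2.41% of all genes. For genes listed by the interaction, unlike values in the 2 lines were a condition of entry. For genes listed by CO2 over both lines, like values in the 2 lines were favoured. The group medians, and the values of single genes from those lists, are therefore not independent evidence of a difference or of a likeness between lines. Homeobox 1 had -1.33 in VPZ-34A and -0.34 in WT.

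**Figure D5:**
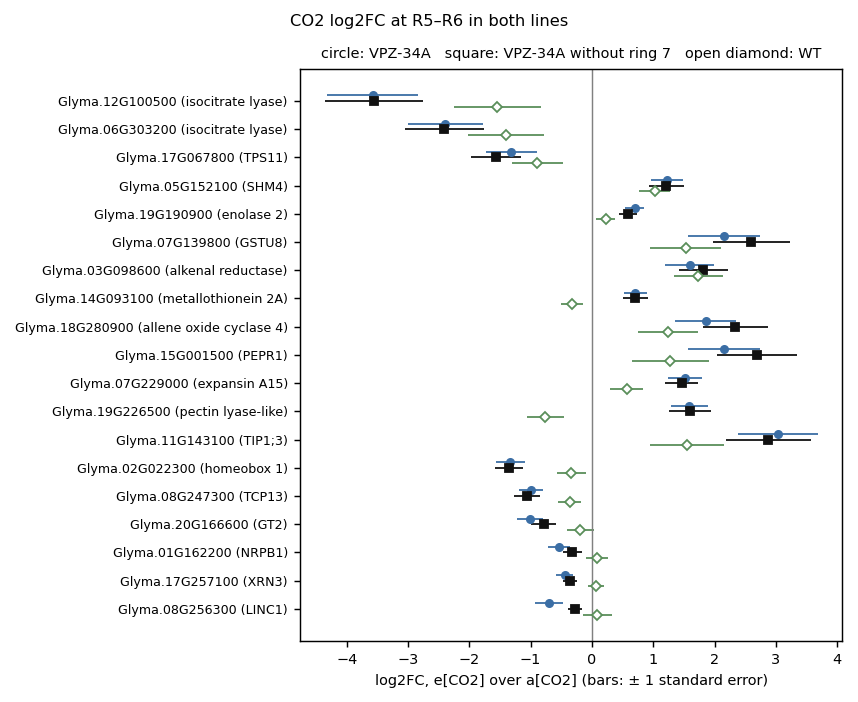
The log2FC of e[CO2] over a[CO2] at R5–R6 with bars of 1 standard error, for VPZ-34A (circles), VPZ-34A without ring 7 (squares) and WT (open diamonds). Alkenal reductase stood at 1.59 and 1.73 in the 2 lines, metallothionein 2A at 0.71 and -0.33, and *LINC1* at -0.70, and -0.28 without ring 7, against 0.09 in WT. The WT values include ring 7.

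Whether the response differed between the lines was tested directly. The interaction of line and CO2 gave 0 genes at an adjusted p of 0.05 in edgeR (lowest adjusted p = 1), 801 at an unadjusted p under 0.05 (2.41%), and 1 in DESeq2. With the ring as a block, which accounts for the shared plots, 0 genes again passed adjustment, and 1633 had an unadjusted p under 0.05 with a fixed block (edgeR, 4.92%) and 1814 with a random block (limma-voom, 5.46%). That gene was the pectin lyase-like Glyma.19G226500, which also had the lowest unadjusted p in edgeR. In WT it stood at 2.046, 1.35, 1.6 and 2.19 CPM at a[CO2] and at 1.07, 1.17, 1.16 and 0.821 CPM at e[CO2], a log2FC of -0.76 ± 0.30 against 1.59 ± 0.30 in VPZ-34A. The difference of the log2FC was 2.35 ± 0.43 (edgeR adjusted p = 1, DESeq2 adjusted p = 0.00313). The next 2 genes were Glyma.13G273700, with 0.36 in VPZ-34A and -1.94 in WT, and Glyma.06G100900, with 0.999 and -0.73. Metallothionein 2A (Glyma.14G093100) stood at 1712, 2278, 1625 and 1780 CPM in WT at a[CO2] and at 1520, 1675, 1182 and 1520 CPM at e[CO2], a log2FC of -0.33, with an interaction of 1.04 (unadjusted p = 0.00103, edgeR). Its a[CO2] level in VPZ-34A was below that of WT in every ring, and its e[CO2] level overlapped. Without ring 7 the interaction again gave 0 genes after adjustment, with 848 at an unadjusted p under 0.05 (edgeR). The paper did report genes for this interaction at this stage, with limma after ComBat-seq by block, which was not run here. Of its listed genes 282 were tested here, and 206 had an unadjusted interaction p under 0.05 (edgeR). That list was made on these libraries, so this count is not independent evidence.

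The response also did not pass the test of a difference from that of VPZ-34A at V4–V5. The difference between stages gave 0 of 34786 genes in edgeR (lowest adjusted p = 0.674), 1546 at an unadjusted p under 0.05 (4.44%), and 1 in DESeq2. Without ring 7 the edgeR test again gave 0 (lowest adjusted p = 0.122), with 2959 genes at an unadjusted p under 0.05 (8.44%), and without ring 4 there were 995. At V4–V5 itself 0 genes passed in edgeR, with 1327 at an unadjusted p under 0.05 (3.81%). The gene of lowest p, and the one that DESeq2 called, was Glyma.04G250600, annotated as a nodulin MtN21-like transporter. In the fit of both stages it stood at 0.651, 2.37, 0.688 and 0.527 CPM at a[CO2] and at 4.57, 3.92, 2.82 and 2.63 CPM at e[CO2] at V4–V5, and at 6.33, 4.64, 9.27 and 9.81 CPM at a[CO2] and 3.33, 2.5, 2.78 and 2.52 CPM at e[CO2] at R5–R6. The e[CO2] rings were thus all above the a[CO2] rings at the first stage and all below at the second. The earlier log2FC was 1.75 and the later one -1.44, a difference of -3.19 ± 0.54 (edgeR adjusted p = 0.674, DESeq2 adjusted p = 0.000153). Glyma.15G250200 followed, with -0.40 at the first stage and 2.54 at the second, where it stood at 0 to 0.0891 CPM at a[CO2] and at 0.235 to 0.455 CPM at e[CO2]. Glyma.13G118500, with 2.56 at the first stage and -0.44 at the second, was the third. Its level at V4–V5 was low, at 0 to 0.162 CPM at a[CO2] and 0.263 to 1.04 CPM at e[CO2]. At R5–R6 it stood at 10 to 16 CPM and at 7.18 to 12.7 CPM.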

How the data were processed

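RNA was sequenced from leaves of 16 VPZ-34A and 16 WT samples. The authors made stranded poly(A) libraries, trimmed reads (Trimmomatic 0.39 per the labels), mapped them with STAR 2.7.10a (soybean assembly Wm82.a4.v1 plus the 3 transgenes), and counted them with featureCounts (Subread 2.0.4). The deposited values are estimated counts per gene, because the authors assigned multi-mapping reads fractionally, and 32.6% of the nonzero values were not whole. The paper then used ComBat-seq, TMM and limma, and the deposited counts carry none of these steps. Its field blocks, which pair rings, are not in the labels, so ComBat-seq was not run.

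Groups and rings were read from the sample labels, and 0 columns belonged to no sample. Counts were rounded, filtered with filterByExpr (33200 of 52875 genes kept) and scaled by TMM. The contrast of e[CO2] against a[CO2] within VPZ-34A and its difference from WT were tested in the 16 R5–R6 libraries with the edgeR 4.0.16 quasi-likelihood test (R 4.3.3), with Benjamini-Hochberg adjustment over all genes, and the difference between stages in the 16 VPZ-34A libraries (34786 genes). The alternatives used limma 3.58.1, DESeq2 1.42.0 and the settings given in the closing section, each on the same counts, and the tests were tested on simulated data. The CPM of R5–R6 are scaled by the fit of that stage, and those of the stage difference by the fit of both stages. A floor of 3 counts covers counting error only.

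Replicate numbers are ring numbers, so that libraries of the 2 lines, and of the 2 stages, with the same number came from the same plot. The correlation across genes of their deviations from the group means at R5–R6 was -0.02 to 0.59 between the lines, and between the stages in VPZ-34A it was -0.04 to 0.39. Within groups, the chi-square statistic per gene between 2 libraries was 13.4 to 182, and no library was treated as a copy of another.

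Named genes were the 10 VDE, PsbS and ZEP genes, genes named in the text of the paper, the 6 genes of lowest p per direction among those without overlap (since none was called), and the 3 of lowest p for the interaction and for the stage difference. Others were chosen from the annotation after their values were seen. The comparison, the lists and the tests were chosen with earlier results of these data known. Lists planned on protein descriptions, including markers of leaf mesophyll, seed and nodule, were not used, since 0 gene IDs matched the reference table, and the tissue was not checked beyond the native VDE, PsbS and ZEP genes. Sequences were not used here.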

Additional observations from a re-analysis of the deposited data

Results flagged for a closer look

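4 of 66 groups of 4 libraries held 1 library far from the other 3 by Dixon's test (critical value 0.829), and chance flags about 1 in 20 groups. The first principal component score of VPZ-34A at a[CO2] was 57.67 in ring 7 and -76.65 to -57.98 in the other 3 rings. The native ZEP gene Glyma.11G055700 stood at 16.32 CPM in a[CO2] ring 1 and at 32.93 to 35.44 CPM in the other a[CO2] rings. Glyma.02G234800 stood apart in both groups, at 29.92 CPM in a[CO2] ring 1 against 39.83 to 41.62 CPM, and at 26.51 CPM in e[CO2] ring 5 against 18.84 to 19.79 CPM. The first principal component bears on each count given with and without ring 7, and the part of ring 7 in single genes beyond those values was not tested.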

How the results depend on the processing

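The count of 0 genes for e[CO2] in VPZ-34A was also found with unrounded counts, RLE size factors, a minimum of 10 counts in each library or no minimum, limma-voom, the 8 VPZ-34A libraries alone (also without ring 7), all 32 libraries, and a required log2FC of 1, with lowest adjusted p-values of 0.0565 to 0.323 where one was computed, and with each ring left out in turn (0 to 0 genes). It was 146 with DESeq2, 645 with limma-voom quality weights and 573 with DESeq2 without ring 7, a setting added after seeing the data. Limma-voom without ring 7, added likewise, gave 0, with both lines and with VPZ-34A alone. Genes at an unadjusted p under 0.05 numbered 2441 (without ring 6) to 4512 (without ring 7) with a ring left out, and 7628 with quality weights. The interaction gave 1 gene with DESeq2 and 0 to 0 with a ring left out. The stage difference gave 1 gene with DESeq2 and 0 to 1 with a ring left out, the 1 being Glyma.04G250600 without ring 2 (log2FC -4.12, edgeR adjusted p = 0.00052). When the ring entered as a replicate block the counts were 0, as a random block for e[CO2] (limma-voom, lowest adjusted p = 0.104) and for the interaction (0.0726), and as a fixed block for the interaction (0.688) and the stage difference (0.599), so that the block changed no call. It moved the count of interaction genes at an unadjusted p under 0.05 from 801 to 1633 (fixed) and 1814 (random), and quality weights to 1440. For the stage difference that count was 995 to 2959 with a ring left out and 3285 with quality weights. Of 658 alternative values for 32 values of named genes, 599 kept their direction and their side of the threshold and 40 passed it under DESeq2 (with or without ring 7), quality weights or without ring 2. The other 19 changed sign, in 5 uncalled genes with a log2FC of -0.04 to 0.16 with all rings, and 15 of these came from leaving out a ring, with ranges of -0.199 to 0.197 for *AtVDE*, -0.14 to 0.154 for Glyma.09G000600, -0.0655 to 0.0353 for Glyma.04G249700, -0.103 to 0.448 for Glyma.16G204600 and -0.371 to 0.807 for *GAPC1* (Glyma.18G009700). The other 4 were *AtVDE* at -0.000677 with all 32 libraries and Glyma.09G000600 at 0.00803 with quality weights and, without ring 7, at 0.0277 with VPZ-34A libraries alone and 0.0138 with DESeq2. Depth limited genes near 3 counts, and the causes of these differences were not tested.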
